A study of Mus musculus with 19 samples.

Results

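The 8 transcription regulators Lhx9, Rfx4, Otp, Zic1, Zic4, Otx1, Dmrtb1 and Lmo2 were examined in neurons of the mouse lateral hypothalamic area (LHA), a region that governs arousal, feeding and motivated behaviour. They were picked by gene symbol from the 52636 gene identifiers of the count table, because earlier results of the same data had shown that their level differed between neuron classes. Their class differences are therefore described below without a test. The cell bodies came from 7 male mice, each 6 to 8 weeks old and of the cross Agrp-IRES-Cre x Ai9, in which cells that express the feeding peptide Agrp carry tdTomato. Fluorescent axons of these cells marked the borders of the dissected area, and the cells, picked by hand, were themselves non-fluorescent. All mice had this genotype and none was treated, so the 19 plates of 96 wells form 1 group, and which mouse filled which plate is not given.

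Of 1612 wells labelled LHA, 1534 held at least 1000 detected genes and were used. They were sorted by their own transcripts, counted as unique molecular identifiers (UMIs). The Pmch class had at least 1% of its UMIs in Pmch (68 wells), the Hcrt class had at least 1% in Hcrt (1065 wells), and 3 wells that passed both limits were set aside. Of the remaining wells, the class without GAD had fewer than 5 UMIs of Gad1 and Gad2, the enzymes that make GABA (71 wells), and the GAD class had 5 or more (327 wells). A level is given as counts per 1e6 UMIs of the class (CPM). Plates with at least 3 wells of a class enter its range over plates, which are 13 plates for the Pmch class, 19 for the Hcrt class, 10 for the class without GAD and 16 for the GAD class.

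Hcrt encodes orexin, a peptide that sustains wakefulness, and Pmch encodes melanin-concentrating hormone, a peptide linked to feeding and sleep. Neurons of these kinds lie mixed in the LHA, and each is laid down in development by combinations of transcription factors that can remain on in the adult cell. Homeodomain proteins (Lhx9, Otp, Otx1), the winged-helix protein Rfx4, the zinc-finger proteins Zic1 and Zic4 and the DM-domain protein Dmrtb1 bind DNA themselves, whereas Lmo2 is a LIM-only protein that bridges other factors.

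Wells of the 4 classes had a median of 59063 UMIs (Pmch), 45722 UMIs (Hcrt), 24969 UMIs (class without GAD) and 24486 UMIs (GAD). Totals of the LHA wells lay between 1835746 and 5070306 UMIs per plate. All 384 well barcodes were reused in 4 or 5 plates each, so the plate and the barcode together name a well. Hcrt had UMIs in every well of the other 3 classes, at 1.65% to 1.84% of its level in the Hcrt class, and Pmch lay at 0.152% to 0.237% of its own class's level outside it. Among wells that received no cell and held at most 1000 UMIs, 2 UMIs of Lhx9, 2 of Rfx4, 1 of Otp and none of the other 5 regulators were counted. At least 5 of 9 pan-neuronal genes were detected in all 68 Pmch wells, but 11 Hcrt wells, 9 wells of the class without GAD and 2 GAD wells fell short of this or held more of a non-neuronal marker list. Oligodendrocyte markers summed to 1324 CPM in the class without GAD, of which 93.0% came from 1 well.

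Upstream sequences of 6 regulators were read at annotated transcription starts. Each window spans 250 bases before to 50 bases after a transcription start in the RefSeq promoter table (build GRCm38.p6), read 5′ to 3′ along the gene, and capitals mark the motifs GGGCGG (GC box) and CCAAT on either strand. The windows are chr1:138842395-138842694 (minus strand) for Lhx9, chr10:84755798-84756097 (plus) for Rfx4, chr13:94875386-94875685 (plus) for Otp, chr9:91365719-91366018 (minus) for Zic1, chr9:91368722-91369021 (plus) for Zic4 and chr4:107684181-107684480 (minus) for Dmrtb1. The table holds a second window for Rfx4 (chr10:84837898-84838197, without these motifs) and for Dmrtb1 (chr4:107683540-107683839, with GGGCGG and a GC content of 74.7%), and for both genes the window at the start of the gene span is shown. The windows of Lhx9 and Zic4 lie inside their gene spans and not at the start of the span.
Lhx9: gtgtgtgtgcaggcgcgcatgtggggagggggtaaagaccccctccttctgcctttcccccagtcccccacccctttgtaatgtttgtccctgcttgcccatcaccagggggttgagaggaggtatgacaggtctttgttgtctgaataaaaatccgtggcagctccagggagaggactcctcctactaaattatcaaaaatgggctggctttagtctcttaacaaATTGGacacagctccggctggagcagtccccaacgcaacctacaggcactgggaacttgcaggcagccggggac
Rfx4: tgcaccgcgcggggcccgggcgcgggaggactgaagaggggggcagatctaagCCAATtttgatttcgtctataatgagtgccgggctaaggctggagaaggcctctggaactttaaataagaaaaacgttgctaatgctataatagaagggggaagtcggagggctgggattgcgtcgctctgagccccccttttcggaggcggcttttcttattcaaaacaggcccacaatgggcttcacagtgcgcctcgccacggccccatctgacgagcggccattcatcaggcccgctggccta
Otp: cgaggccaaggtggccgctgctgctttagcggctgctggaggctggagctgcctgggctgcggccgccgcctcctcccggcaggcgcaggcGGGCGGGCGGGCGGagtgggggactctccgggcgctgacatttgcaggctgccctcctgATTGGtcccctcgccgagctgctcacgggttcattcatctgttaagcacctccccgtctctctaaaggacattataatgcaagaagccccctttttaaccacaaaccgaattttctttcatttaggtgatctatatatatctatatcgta
Zic1: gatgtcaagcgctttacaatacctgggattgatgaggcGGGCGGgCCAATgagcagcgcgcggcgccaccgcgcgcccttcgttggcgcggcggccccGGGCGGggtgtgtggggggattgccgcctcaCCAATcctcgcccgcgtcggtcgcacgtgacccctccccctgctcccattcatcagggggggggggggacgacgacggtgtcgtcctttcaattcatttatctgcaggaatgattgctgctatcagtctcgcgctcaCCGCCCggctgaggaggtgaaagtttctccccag
Zic4: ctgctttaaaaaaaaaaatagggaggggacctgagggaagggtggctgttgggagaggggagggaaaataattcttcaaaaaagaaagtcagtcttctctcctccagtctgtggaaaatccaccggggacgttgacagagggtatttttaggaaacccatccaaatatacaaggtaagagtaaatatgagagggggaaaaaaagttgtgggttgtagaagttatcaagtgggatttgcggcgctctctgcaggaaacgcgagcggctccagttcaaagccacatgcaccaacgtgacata
Dmrtb1: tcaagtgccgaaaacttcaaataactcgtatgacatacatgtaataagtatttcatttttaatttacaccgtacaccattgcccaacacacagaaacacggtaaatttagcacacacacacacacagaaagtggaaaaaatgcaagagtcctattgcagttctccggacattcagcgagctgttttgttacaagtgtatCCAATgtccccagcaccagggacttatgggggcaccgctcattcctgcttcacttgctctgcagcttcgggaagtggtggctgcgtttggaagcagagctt

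The Otp window holds 3 copies of GGGCGG that abut as GGGCGGGCGGGCGG and share bases, and the Zic1 window holds 3 separate copies. CCAAT occurs in the windows of Lhx9, Rfx4, Otp, Zic1 and Dmrtb1, and neither motif is in the Zic4 window. Of 32851 windows of 300 bases in the table, 35.66% hold GGGCGG and 37.41% hold CCAAT, so these matches are common ones. Searches on both strands for the homeodomain core TAATTA (in 5.291% of all windows), the core TAATCC bound by factors of the Otx kind (7.062%), the motif GTTGCC found in binding sites of Rfx factors (12.51%) and the promoter element TATAAA (13.62%) gave no match in these 6 windows. The GC content was 65.3% for Zic1 and 46.0% for Zic4, on either side of the median of 52.7% over all windows. The start sites of their windows lie 3204 bp apart and point away from each other. In GENCODE M21 the gene spans of Zic1 and Zic4 overlap by 3398 bp on opposite strands. Whether counting used strand is not given in the sources used here, so reads from the overlap cannot be told apart.

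Levels of the 8 regulators divided them by class. Otx1, Dmrtb1, Zic1 and Zic4 were highest in the Pmch class, Lhx9, Rfx4 and Lmo2 in the Hcrt class, and Otp in the class without GAD. None was highest in the GAD class. For 6 of the 8 (all but Lhx9 and Lmo2) the highest class lay at least 5-fold above each other class, which 2.98% of 8112 genes with at least 20 CPM in a class also did; because the regulators were chosen for this contrast, the count describes them and shows nothing more.

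**Figure D1:**
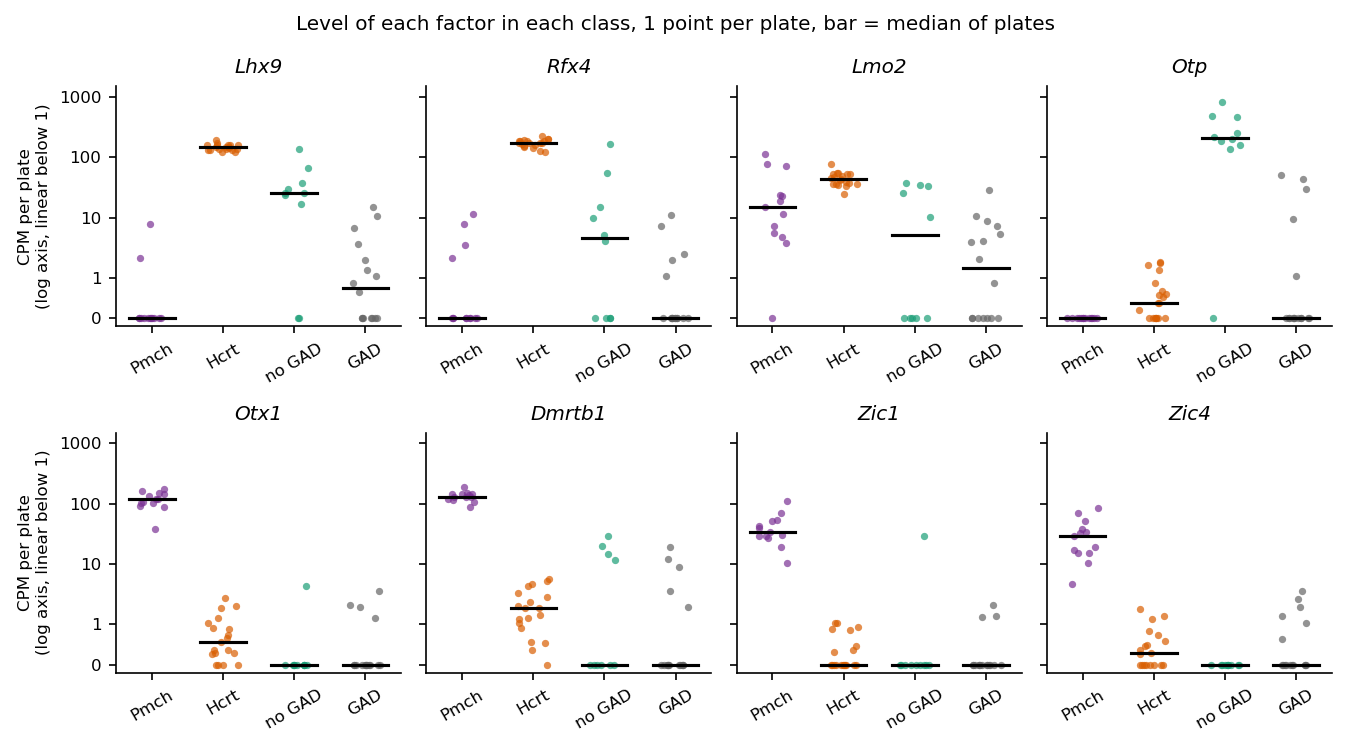
Level of each regulator (CPM, symmetric log axis) in the Pmch class, the Hcrt class, the class without GAD and the GAD class, with 1 point per plate holding at least 3 wells of the class and a bar at the median. Points at 0 are spread slightly around 0 so that they can be seen. Otx1 and Dmrtb1 stand above all plates of the other classes in the Pmch class, as do Lhx9 and Rfx4 in the Hcrt class apart from 1 plate of the class without GAD for each.

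The Hcrt class was marked by Lhx9 and Rfx4. Lhx9 (ENSMUSG00000019230, chr1:138825186-138848577, GRCm38), a LIM homeodomain factor that promotes orexin neuron fate in mouse and zebrafish, ranged over the 19 plates between 121 and 194 CPM with a median of 146 CPM in the Hcrt class. In the class without GAD it ranged from 0 to 134 CPM (median 25.6 CPM), in the GAD class from 0 to 14.9 CPM (median 0.761 CPM) and in the Pmch class from 0 to 7.74 CPM (median 0 CPM). The ranges of the Hcrt class and the class without GAD overlapped in 1 plate of the class without GAD, and those of the GAD and Pmch classes lay wholly below the Hcrt class. Pooled over wells, Lhx9 stood at 146 CPM in the Hcrt class and 48.4 CPM in the class without GAD, a 3.02-fold ratio whose 95% counting interval runs from 2.46 to 3.75. UMIs of Lhx9 were found in 91.4% of Hcrt wells (973 of 1065; 95% Clopper-Pearson interval 89.5% to 93.0%), 25.4% of wells of the class without GAD (18 of 71), 5.88% of Pmch wells (4 of 68) and 4.59% of GAD wells (15 of 327). Intervals and limits of this kind cover counting error only.

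Rfx4 (ENSMUSG00000020037, chr10:84756062-84906538) is a winged-helix factor needed for the formation of dorsal midline brain structures in mice. It ranged between 120 and 220 CPM over plates of the Hcrt class, with a median of 171 CPM. Its plate values ran from 0 to 164 CPM (median 4.60 CPM) in the class without GAD, from 0 to 11.3 CPM (median 0 CPM) in the Pmch class and from 0 to 10.97 CPM (median 0 CPM) in the GAD class. The 164 CPM came from 5 UMIs in the 3 wells of plate 5, and the next plate of that class had 54.3 CPM, below all 19 plates of the Hcrt class. Against the class without GAD, the Hcrt class stood out more for Rfx4 than for Lhx9. The pooled Rfx4 level of 168 CPM in the Hcrt class was 11.8-fold that in the class without GAD (14.2 CPM, interval 8.11 to 17.9). Of the 27 Rfx4 UMIs in the class without GAD, 3 wells held 66.7%. Against the GAD class the ratio was 194-fold for Rfx4 and 51.9-fold for Lhx9. The order turned against the Pmch class, with 81.6-fold for Rfx4 (interval 42.9 to 178) and 128-fold for Lhx9 (54.7 to 394). Rfx4 had UMIs in 90.7% of Hcrt wells (966 of 1065), 11.3% of wells without GAD (8 of 71), 8.82% of Pmch wells (6 of 68) and 1.83% of GAD wells (6 of 327).

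Hcrt wells were the deepest class but one, so shares were also compared after each well was thinned to 18000 UMIs, which left out 62 Hcrt wells, 1 Pmch well, 15 wells of the class without GAD and 74 GAD wells. Lhx9 was then detected in 81.7% of 1003 Hcrt wells, 28.6% of 56 wells without GAD, 2.99% of 67 Pmch wells and 2.77% of 253 GAD wells. Rfx4 was detected in 82.2%, 10.7%, 2.99% and 1.19% of the same wells in that order of classes. At equal depth the order of the Hcrt class, the class without GAD and the others was thus kept for both genes.

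**Figure D2:**
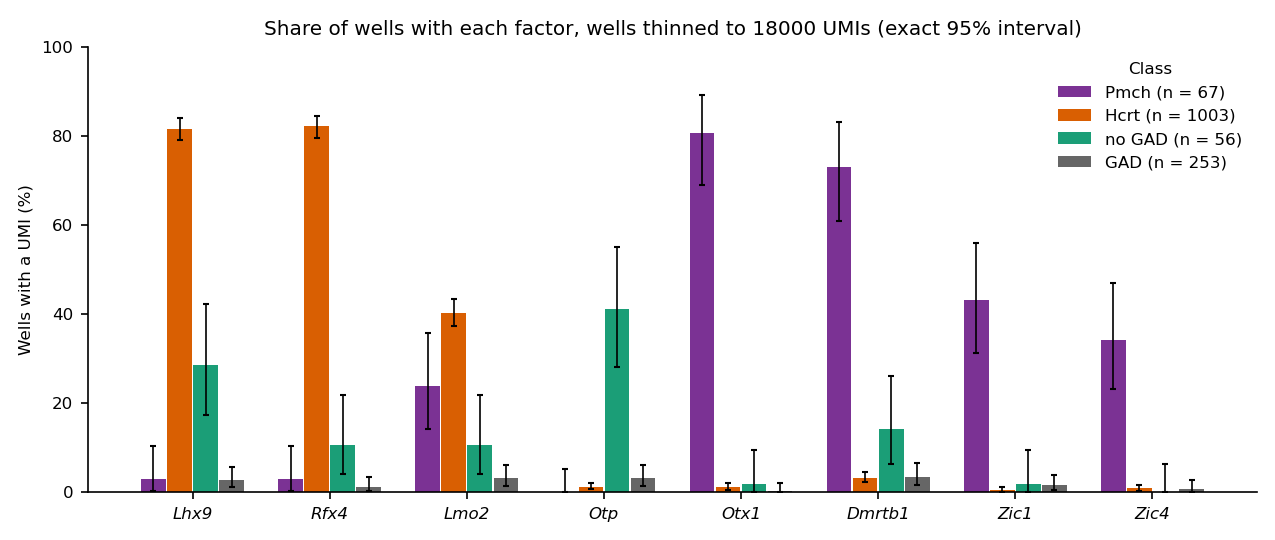
Percent of wells with at least 1 UMI of each regulator in the 4 classes after thinning to 18000 UMIs, with exact 95% binomial intervals. Lhx9 (81.7%) and Rfx4 (82.2%) reach their highest shares in Hcrt wells, Otx1 (80.6%) and Dmrtb1 (73.1%) in Pmch wells and Otp (41.1%) in wells without GAD.

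Levels of Lhx9 and Rfx4 were also set against the orexin transcripts of the same wells, which the limits of the classes fix in part. Per 1000 Hcrt UMIs, the Hcrt class had 1.11 UMIs of Lhx9 (95% Poisson interval 1.08 to 1.13), the Pmch class 0.5257 (0.171 to 1.23) and the GAD class 1.27 (0.830 to 1.86), with intervals that overlap. Of the 26 Lhx9 UMIs in GAD wells, 12 lay in 1 well. The class without GAD had 19.9 UMIs of Lhx9 per 1000 Hcrt UMIs (16.01 to 24.46). For Rfx4 the values were 1.27 UMIs per 1000 Hcrt UMIs in the Hcrt class (1.24 to 1.30), 0.946 in the Pmch class (0.433 to 1.80), 5.84 in the class without GAD (3.84 to 8.51) and 0.391 in the GAD class (0.169 to 0.770). Whether transcripts carried over from orexin cells have a part in the low levels outside the Hcrt class was not tested.

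Near the limit of 1% Hcrt few wells were found. In the 5 wells between 1% and 2% Hcrt, Lhx9 stood at 158 CPM and Rfx4 at 147 CPM, each from 2 of the 5 wells. In the 44 wells between 0.5% and 1%, Lhx9 stood at 20.8 CPM and Rfx4 at 12.9 CPM. For Pmch, no well lay between 1% and 2% and 1 well between 0.5% and 1%.

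Within the Hcrt class Lhx9 and Rfx4 were found together in 891 of 1065 wells, and 17 wells had neither. After thinning, Rfx4 was seen in 83.3% of wells with Lhx9 and in 77.2% of wells without it. Pearson's r of the pair over the 1065 wells was 0.08 on the scale log2(CPM + 50). Wells with the gene held a median of 6 UMIs of Lhx9 and 7 UMIs of Rfx4. Counting error at such counts lowers r, so this r does not show whether the 2 levels are linked. All 3 of Lhx9, Rfx4 and Lmo2 were present in 493 Hcrt wells and none of them in 10.

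Whether the factors followed the amount of orexin message was asked within plates, which the choice of regulators had not used. Hcrt wells were divided at each plate's median Hcrt share into 528 wells above it and 537 wells at or below it, and Hcrt itself was taken out of the totals. Counts summed per plate were tested with edgeR's quasi-likelihood test with the plate as block, and p-values were adjusted by Benjamini-Hochberg over 8743 genes, of which 186 (2.13%) passed 0.05, 1.59% higher and 0.538% lower, against 19 without the block. None of the 3 regulators with enough counts was among them, either with edgeR or with DESeq2, and 1 of the 3 had an unadjusted p under 0.05. Lhx9 averaged 168 ± 26.2 CPM in high-Hcrt wells and 169 ± 22.8 CPM in low-Hcrt wells (SD, 19 plates), a log2 difference of 0.04 with an SE of 0.06 (adjusted p = 0.894), and it was higher in high-Hcrt wells in 8 of 19 plates. Rfx4 averaged 205 ± 39.1 CPM in high-Hcrt wells and 189 ± 27.2 CPM in low-Hcrt wells, a log2 difference of 0.15 with an SE of 0.06 (edgeR, unadjusted p = 0.0104, adjusted p = 0.199), and was higher in 12 of 19 plates. Lmo2 averaged 49.0 ± 12.5 CPM in high-Hcrt wells and 53.2 ± 17.3 CPM in low-Hcrt wells, with a log2 difference of -0.05 (SE 0.11; adjusted p = 0.923).

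The plate values of the wells with more and with less orexin message overlapped widely for all 3 genes. The wells above the median were also deeper, with a median of 49319 UMIs against 40398 UMIs in the wells below it, and the part of depth in these differences was not tested. Plates share 7 mice in a way that is not given, so p-values over plates measure the spread between plates and may be too small.

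**Figure D3:**
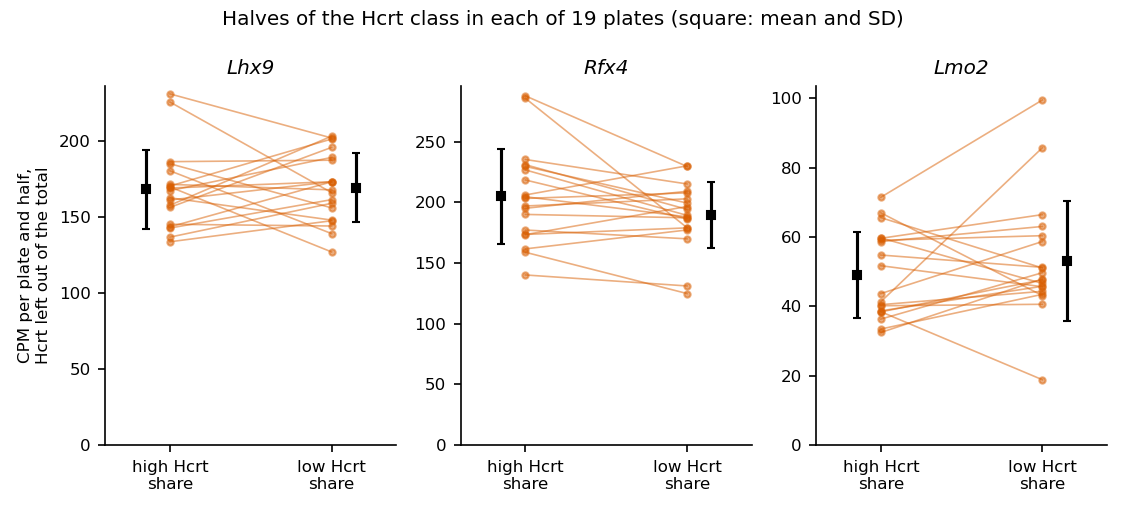
Level of Lhx9, Rfx4 and Lmo2 (CPM with Hcrt left out of the total) in Hcrt wells above and at or below the plate's median Hcrt share, with 1 line per plate (19 plates). The lines cross in both directions, with Lhx9 higher in high-Hcrt wells in 8 plates and Rfx4 in 12 plates.

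Lmo2 was the regulator least tied to 1 class. Lmo2 (ENSMUSG00000032698, chr2:103957986-103981878), best known for its part in blood cell development, ranged between 24.7 and 75.4 CPM over plates of the Hcrt class (median 43.5 CPM) and between 0 and 112.1 CPM over plates of the Pmch class (median 14.9 CPM). The Pmch plates reached both below and above all Hcrt plates. The pooled ratio of the Hcrt class (43.8 CPM) to the Pmch class (30.4 CPM) was 1.44. Over all plates the class without GAD had 15.3 CPM and the GAD class 5.84 CPM. On plates whose titles begin with Q8 the order of the peptide classes turned, with 39.4 CPM in the Hcrt class and 67.0 CPM in the Pmch class. Its UMIs were seen in 53.8% of Hcrt wells, 38.2% of Pmch wells, 11.3% of wells without GAD and 3.67% of GAD wells. After thinning these shares were 40.4%, 23.9%, 10.7% and 3.16%.

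In the Pmch class, wells with and without Lmo2 UMIs fell largely on either side of a division by Cartpt. Cartpt, which encodes the CART peptide and is made by a subset of melanin-concentrating hormone neurons together with the neurokinin receptor Tacr3, was either abundant or scarce: the highest well below 5000 CPM had 1917 CPM and the lowest above it 6733 CPM. This division was chosen after the data had been seen. Of 33 wells with high Cartpt, 24 (72.7%; 95% interval 54.5% to 86.7%) held Lmo2 UMIs, whereas of 35 wells with low Cartpt, 2 (5.71%; 0.700% to 19.2%) did. Pooled levels of Lmo2 were 53.4 CPM in high-Cartpt wells and 2.53 CPM in low-Cartpt wells. Tacr3 was detected in all 33 high-Cartpt wells and in 19 of 35 low-Cartpt wells.

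Depth differed between these wells, with medians of 67309 UMIs in high-Cartpt wells and 48946 UMIs in low-Cartpt wells. At 18000 UMIs a well, Lmo2 was found in 15 of 33 high-Cartpt wells and 1 of 34 low-Cartpt wells, so the difference was present at equal depth. Over the 11 plates with both kinds, Lmo2 ranged from 13.1 to 239 CPM in high-Cartpt wells (median 16.8 CPM) and from 0 to 13.4 CPM in low-Cartpt wells (median 0 CPM), and the high-Cartpt wells were above the low-Cartpt wells of the same plate in 11 of 11 plates. On plates 1, 2 and 10 this direction rested on 1 Lmo2 UMI each. The edgeR test on genes with enough counts called 18 of 2297 genes (0.784%; 0.522% higher, 0.261% lower) and did not include Lmo2, whose counts were too low. Without that filter, 35 of 19137 genes (0.183%) were called, and Lmo2 had a log2 difference of 3.57 (SE 0.93) with an adjusted p of 0.0627, which misses the threshold of 0.05.

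Of the other regulators of the Pmch class, none passed the test for this division. Otx1 stood at 115.99 CPM in high-Cartpt wells and 132 CPM in low-Cartpt wells (log2 difference 0.00, SE 0.34; edgeR adjusted p = 0.997). Dmrtb1 stood at 127 CPM in high-Cartpt wells and 133 CPM in low-Cartpt wells (log2 difference 0.10, SE 0.37; edgeR adjusted p = 0.971). Neither passed the test, with edgeR or with DESeq2, nor had an unadjusted p under 0.05, which does not show that their levels were alike. Zic1 had 44.6 CPM in high-Cartpt wells and 36.4 CPM in low-Cartpt wells (log2 difference 0.70, SE 0.69). Zic4 had 43.4 CPM in high-Cartpt wells and 22.3 CPM in low-Cartpt wells (log2 difference 1.23, SE 0.72). The unfiltered edgeR fit gave adjusted p = 0.970 for both. Zic1 was higher in high-Cartpt wells in 6 of 11 plates and Zic4 in 8 of 11. After thinning, Zic1 was found in 16 of 33 high-Cartpt and 13 of 34 low-Cartpt wells, and Zic4 in 16 of 33 and 7 of 34. A difference in Zic1 or Zic4 is thus neither shown nor excluded.

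**Figure D4:**
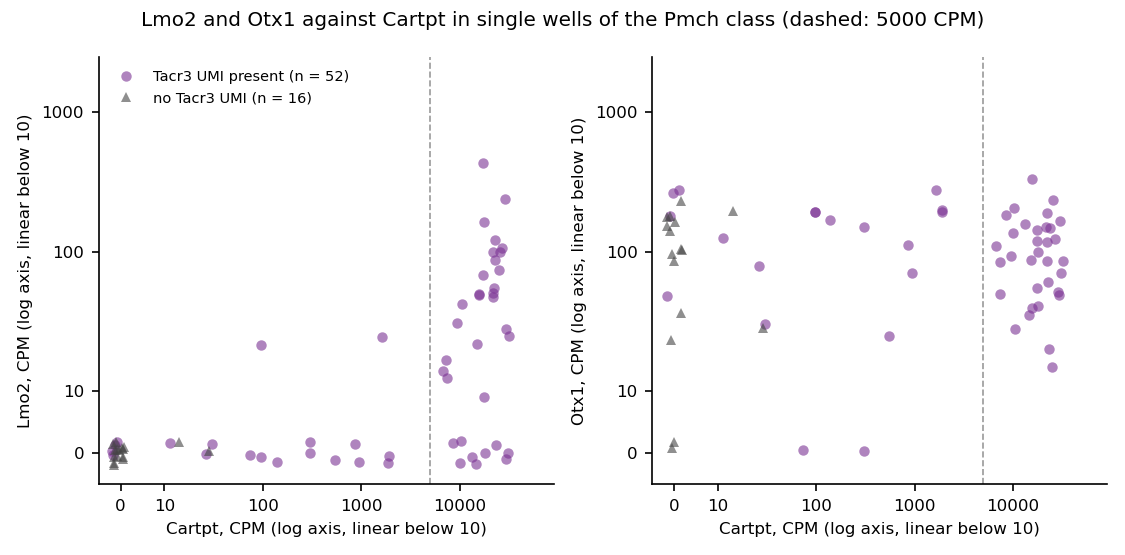
Level of Lmo2 and of Otx1 against the level of Cartpt (CPM) in single wells of the Pmch class. Of these, 33 wells have high Cartpt and 35 wells low Cartpt. The dashed line marks the limit between high and low Cartpt, and the symbols show Tacr3. Points at 0 are spread slightly around 0. Lmo2 is above 0 in 24 high-Cartpt wells and in 2 low-Cartpt wells, while Otx1 is above 0 in 33 and 31 wells.

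Otx1 and Dmrtb1 marked the Pmch class as a whole. Otx1 (ENSMUSG00000005917, chr11:21994764-22002897), a homeodomain factor of forebrain patterning, ranged between 37.3 and 174 CPM over 13 plates of the Pmch class with a median of 117.5 CPM. The highest plate of any other class had 4.28 CPM, so the ranges did not overlap. Pooled, its 123 CPM in the Pmch class was 174-fold its level in the Hcrt class (0.708 CPM; interval 125 to 248), the nearest class. Otx1 UMIs were in 94.1% of Pmch wells (64 of 68), 2.63% of Hcrt wells, 1.41% of wells without GAD and 1.83% of GAD wells.

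Dmrtb1 (ENSMUSG00000028610, chr4:107676290-107684230) is known for its role in the entry of male germ cells into meiosis. In the Pmch class it ranged between 88.2 and 186 CPM over plates, with a median of 131 CPM, and was detected in 92.6% of wells (63 of 68). Outside it the plate values ran from 0 to 29.0 CPM in the class without GAD, from 0 to 5.62 CPM in the Hcrt class and from 0 to 18.8 CPM in the GAD class. All Pmch plates thus lay above all plates of the other classes, but Dmrtb1 was less exclusive than Otx1: its pooled level of 130 CPM was 9.86-fold that of the class without GAD (13.2 CPM; interval 6.61 to 15.4). In the class without GAD its 25 UMIs came from 9 wells, and in the GAD class 3 of 11 wells with Dmrtb1 held 64.0% of its 50 UMIs.

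Otx1 and Dmrtb1 occurred together in 62 of 68 Pmch wells, and in 42 of 67 after thinning. Their levels moved together more than those of any other pair of regulators compared within a class (r = 0.46 over 68 wells). Wells of 1 class share plates and depth, so r is a description.

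Zic1 (ENSMUSG00000032368, chr9:91358058-91365810) and Zic4 (ENSMUSG00000036972, chr9:91362413-91389348) are zinc-finger factors known for their joint role in cerebellar development in mice. Zic1 ranged between 10.5 and 112.01 CPM over plates of the Pmch class, with a median of 33.8 CPM, and Zic4 between 4.74 and 85.1 CPM with a median of 28.7 CPM. Plates of the Pmch class had more than any plate of the Hcrt and GAD classes for both genes. Zic1 was detected in 61.8% of Pmch wells (42 of 68) and Zic4 in 55.9% (38 of 68), and after thinning in 43.3% and 34.3%. In no other class did either gene reach 3% of wells.

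The nearest class for Zic1 was the class without GAD, with a pooled 40.9 CPM in the Pmch class against 5.79 CPM there, a 7.07-fold ratio (interval 3.86 to 14.4). Of the 11 Zic1 UMIs of that class, 10 lay in 1 well of plate 14, which also held Otp. Zic4 had no UMI in that class, which allows up to 1.58 CPM (3 UMIs over the class) and a share of wells with a UMI of up to 4.23% (3 wells), and its 33.8 CPM in the Pmch class was 39.1-fold its level in the GAD class (0.866 CPM).

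Although the genes are neighbours, Zic1 and Zic4 were found together in 23 of 68 Pmch wells, with 19 wells holding Zic1 alone, 15 Zic4 alone and 11 neither (r = 0.17). Zic4 was present in 54.8% of wells with Zic1 and in 57.7% of wells without it. After thinning, the shares were 41.4% with and 28.9% without Zic1. Of the Zic1 wells 12, and of the Zic4 wells 13, held a single UMI, so a well without one of them may hold it at a level not detectable at this depth. All 4 of Otx1, Dmrtb1, Zic1 and Zic4 were present in 22 Pmch wells, 3 of them in 31, and none in 1.

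Otp was found in the class without GAD. Otp (ENSMUSG00000021685, chr13:94875602-94885130) is a homeodomain factor that mice need to form the hypothalamic neurons that make vasopressin, oxytocin and thyrotropin-releasing hormone. Over 10 plates of the class without GAD it ranged between 0 and 803 CPM with a median of 204 CPM. In the GAD class it ranged between 0 and 49.997 CPM (median 0 CPM), in the Hcrt class between 0 and 1.84 CPM (median 0.378 CPM), and the Pmch class had no Otp UMI. The pooled 321 CPM in the class without GAD was 46.3-fold the 6.92 CPM of the GAD class (interval 35.8 to 60.9) and at least 468-fold higher than the Pmch class, taking 3 UMIs over that class as the limit.

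Otp was a trait of some of these wells and not of the class. It was present in 45.1% of wells without GAD (32 of 71; 95% interval 33.2% to 57.3%), of which 30 held at least 3 UMIs, and in 1.69% of Hcrt wells (18 of 1065) and 2.75% of GAD wells (9 of 327). With 3 wells as the limit, the zero in 68 Pmch wells allows a share of wells with an Otp UMI of up to 4.41%. In the GAD class the 64 Otp UMIs came from 9 wells in 5 plates, and 3 wells held 71.9% of them. Between plates whose titles begin with Q5, Q6, Q7 and Q8, the share of wells without GAD that held Otp was 61.1%, 54.5%, 41.2% and 14.3%, over 18, 22, 17 and 14 wells. In each of these sets Otp was highest in the class without GAD. With the limit for GAD at 20 UMIs, which moved the class to 164 wells, the share was 20.7%.

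Otp and Lhx9 lay in different wells of the class without GAD. Otp alone was found in 31 wells of 14 plates, Lhx9 alone in 17 wells of 13 plates, both in 1 well and neither in 22 wells (r = -0.40 over 71 wells). Wells with Otp alone had a median of 24921 UMIs and those with Lhx9 alone 25525 UMIs. In wells with Otp alone Otp stood at 713 CPM, and in wells with Lhx9 alone Lhx9 stood at 170 CPM. These wells were picked by the gene itself, so the levels are not comparable with those of a whole class. Of the 91 Lhx9 UMIs in the wells with Lhx9 alone, 23 lay in 1 well. Slc17a6, the vesicular glutamate transporter, was detected in 24 of the 31 Otp wells and in 17 of the 17 Lhx9 wells. Hcrt itself stood at 2161 CPM in wells with Otp alone and 3168 CPM in wells with Lhx9 alone, where the limit of the class keeps Hcrt under 1% of UMIs.

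The neuroendocrine peptides that Otp is known to accompany were found mostly in Otp wells, each in few wells. Avp (vasopressin) reached 500 CPM in 3 wells of 3 plates, all without GAD and all with 22 to 43 UMIs of Otp, which held 98.0% of Avp UMIs. Trh reached 500 CPM in 9 wells of 5 plates, of which 8 held Otp, and these 9 wells held 97.0% of Trh UMIs. Oxt (oxytocin) reached it in 6 wells, of which 4 held Otp. Avp, Trh and Oxt were also among the 5 genes whose levels correlated most with Otp over the same wells (below). Their presence in Otp wells is therefore a description only. Nrn1, the gene with the highest correlation, reached 500 CPM in 6 wells, of which 1 held Otp.

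Across all 1531 wells in the 4 classes, the genes most like each regulator were largely those that mark its class. Likeness was Pearson's r of log2(CPM + 50) against 7772 genes, and points share plate, depth and class. Lhx9 and Rfx4 were nearest to Hcrt (r = 0.69 and 0.72), followed for both by the secretory protein gene Scg2 and then by Pdyn, C1ql3 and Nnat in different orders. Otx1 was nearest to Igf1 (0.74), Tacr3 (0.73) and Pmch (0.71), and Dmrtb1 to Otx1 (0.67), Tacr3 (0.65) and Igf1 (0.63). Zic1 was nearest to Tacr3 (0.51) and Zic4 to Pmch (0.45). Otp was nearest to Nrn1 (0.50), Avp (0.36) and Trh (0.35). Lmo2 was nearest to the calcium-binding protein genes Calb2 (0.41) and Calb1 (0.41).

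Relatives and partners of the 8 regulators were taken from 5 lists with 140 other genes in all. Genes tested in each comparison are those with enough counts, so most listed genes were not tested. In Hcrt against GAD wells (16 plates), edgeR called 3612 of 9271 genes (39%), with 21.7% higher and 17.2% lower. Of 9 tested LIM homeodomain factors and LIM cofactors, 4 were higher and 3 lower. Lhx2, a close relative of Lhx9, averaged 43.4 ± 8.46 CPM in Hcrt wells and 3.08 ± 8.58 CPM in GAD wells (SD, 16 plates; log2 fold change 4.34, SE 0.47; adjusted p = 1.03e-08). The LIM cofactor Ldb2 was also higher (log2 fold change 1.37), whereas Isl1, a LIM homeodomain factor of several GABAergic hypothalamic neurons, was lower at 4.97 ± 3.25 CPM in Hcrt wells and 160 ± 90.2 CPM in GAD wells (log2 fold change -4.53). LIM family members thus moved in both directions.

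Of 5 tested genes of the RFX, ZIC and DMRT families, Rfx3 was called in the same comparison, at 22.8 ± 5.18 CPM in Hcrt wells and 9.86 ± 9.76 CPM in GAD wells (log2 fold change 2.07, SE 0.33). Of 8 tested patterning factors, 4 were higher and 1 lower. Among them Nkx2-2, a homeodomain factor of the ventral neural tube, was higher in Hcrt wells in 16 of 16 plates (log2 fold change 5.49), and Foxp1 was lower (-2.44). All 3 tested GABAergic lineage factors, Dlx1, Dlx5 and Gsx1, were lower in Hcrt wells, with log2 fold changes of -5.87, -5.99 and -7.02. Of 11 tested factors linked to orexin or melanin-concentrating hormone neurons, 4 were higher, among them Rorb (1.08) and Csrnp1 (2.76), and 2 were lower, Nr2f2 (-2.50) and Myt1l (-1.64).

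In Pmch against Hcrt wells (13 plates), 2388 of 7796 genes (30.6%) were called, 13.2% higher and 17.5% lower. The median log2 fold change over all tested genes was -0.11. Lhx2 and Ldb2 were the called genes among 6 tested LIM genes, and both were lower in Pmch wells, Lhx2 at 0.269 ± 0.971 CPM in Pmch wells and 44.5 ± 9.18 CPM in Hcrt wells (SD, 13 plates; log2 fold change -7.02, SE 0.55). Rfx3 was lower as well, at 3.85 ± 6.50 CPM in Pmch wells and 23.5 ± 5.58 CPM in Hcrt wells (log2 fold change -2.77). Of 6 tested patterning factors 2 were higher and 3 lower, the lower ones being Foxp2 (-5.29), Hmx2 (-4.02) and Nkx2-2 (-4.02). Among 9 tested factors linked to these neurons, the nuclear receptors Nr2f1 (2.02) and Nr2f2 (2.92) were higher in Pmch wells in 13 of 13 plates and Rorb was lower (-6.14). No GABAergic lineage factor had enough counts in this comparison.

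Comparisons of the class without GAD rested on 10 plates. In wells without GAD against GAD wells, 37 of 4633 genes (0.799%; 0.151% higher, 0.648% lower) were called, and 65 when plate 19 was left out. Isl1 was the called gene of 4 tested LIM genes, at 12.8 ± 25.1 CPM in wells without GAD and 157 ± 96.7 CPM in GAD wells (log2 fold change -4.16, SE 0.66), and Dlx1 was lower too (-4.59). Neither passed 0.05 with peptide limits of 0.2%. In Hcrt wells against wells without GAD, 527 of 7554 genes (6.98%) were called, 474 higher (6.27%) and 53 lower (0.702%), with a median log2 fold change of 0.28 over all genes. With RLE scaling in place of TMM within edgeR, the median was 0.01 and 337 genes were called, 239 higher and 98 lower. The DESeq2 fit called 680 genes, 402 higher and 278 lower. Lmo4, a LIM-only relative of Lmo2, was lower at 8.81 ± 3.68 CPM in Hcrt wells and 63.9 ± 44.2 CPM in wells without GAD (log2 fold change -2.35, SE 0.51). The homeodomain factor Hmx2 was higher at 28.3 ± 9.16 CPM in Hcrt wells and 0.703 ± 1.51 CPM in wells without GAD (log2 fold change 4.55). Foxp2 was also called higher (2.27, edgeR adjusted p = 0.0357) but did not pass with RLE scaling.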

How the data were processed

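Single neurons were profiled with Smart-SCRB in plates, where read 1 (27 bases) gives the barcode of the well and a UMI and read 2 (125 bases) the transcript, at a stated 135025 ± 38401 (mean ± SD) reads per cell. The authors deposited raw whole-number counts per gene and well, which are called UMIs here from the layout of read 1. Per the submitters' processing notes, bcl2fastq 2.20, cutadapt 2.1.0, STAR 2.7.5c, STARsolo 2.7.5c, Seurat 2.3.4 and R 3.4.3 were used with the build GRCm38. How UMIs were collapsed, whether strand was used and which annotation was counted are not given in the sources used here. The authors also deposited the percent of each well's counts on ERCC spike-ins, which was not used here. Gene coordinates are those of GENCODE M21, and each regulator's identifier matched it.

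The regulators, the gene lists and the limits of the classes were chosen with earlier results of these data known. Wells were filled by hand and no doublet caller was run; 3 wells past both peptide limits were set aside. Counts were summed per plate and class on plates with at least 3 wells of each class (1 well for the Cartpt comparison). They were tested, two-sided, with edgeR 4.0.16 under R 4.3.3 (quasi-likelihood test with robust dispersion, a block for plate, TMM scaling and the filterByExpr filter), with Benjamini-Hochberg adjusted p-values over all tested genes. Both classes of a pair came from the same plates, which pairs them by design. An SE is the log2 fold change divided by the root of F. Fold changes follow TMM and so differ from ratios of CPM. Up to 4 genes per list and comparison were named, those of largest log2 change (at least 1) among genes past 0.05 that reached 20 CPM in the higher class and moved in 1 direction in at least 80% of plates, and the 5 genes most like each regulator, without predicted, Rik and mitochondrial genes. A class with no UMI was set to 3 UMIs over the class for a bound. Shares have exact Clopper-Pearson 95% intervals. DESeq2 1.42.0, RLE scaling, no filter, no block, other limits, thinning and leaving out each plate were the alternatives. The tests were also tried on counts simulated from the mean levels and dispersions of each fit, without differences in level between plates. Of genes changed 2-fold, 23% were recovered for Hcrt wells over wells without GAD and 29% for wells without GAD over GAD wells. The share was 58% for high over low Cartpt, 66% for Pmch over Hcrt, 73% for Hcrt over GAD and 93% for high over low Hcrt. Of genes changed 4-fold, 84% to 100% were recovered. A gene left uncalled may therefore still differ, most of all in comparisons of the class without GAD.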

Additional observations from a re-analysis of the deposited data

Results flagged for a closer look

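In the class without GAD, 1 plate stood apart from the other 9 by Dixon's 95% limit for 4 of the regulators. Chance alone sets a plate apart in about 1 of 20 groups of normally distributed values, which these low counts are not. Lhx9 reached 133.767 CPM in plate 2 (6 UMIs in 3 wells), with the next plate at 66.9 CPM. Rfx4 reached 164.128 CPM in plate 5 (5 UMIs in 3 wells), with the next plate at 54.3 CPM. Zic1 reached 28.7755 CPM in plate 14 (10 UMIs in 9 wells) and Otx1 4.27749 CPM in plate 8 (1 UMI), with all other plates of that class at 0, so that any single plate with a UMI would have stood apart.

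Some wells outside the comparisons also held UMIs of the regulators, given here where a kind of well held at least 5 UMIs of a regulator. The 3 wells past both peptide limits held 35 UMIs of Lhx9, 46 of Rfx4, 15 of Zic1, 24 of Zic4, 39 of Otx1, 50 of Dmrtb1 and 5 of Lmo2, so regulators of the Pmch and Hcrt classes met in the same wells. Their median of 147770 UMIs was above that of each class, and whether these wells hold more than 1 cell was not tested. In the 68 qRNA wells, whose content the labels do not give, Lmo2 had 13 UMIs in 6 wells. LHA wells with fewer than 1000 genes held 5 UMIs of Lhx9 and 8 UMIs of Rfx4, each in 1 well.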

How the results depend on the processing

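Each regulator kept its highest class under other peptide, GAD, gene-number and neuron limits, thinning, other scaling of CPM and leaving out each plate, and within the plates of each title set except for Lmo2 in set Q8. Between 5 and 7 of the 8 lay 5-fold above each other class. Of the levels and shares of regulators in their highest class, 371 values under these alternatives stayed within the replicate spread and 21 did not, most of them shares at lower depth, for example Lhx9 in 69.1% of Hcrt wells at 10000 UMIs.

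Counts of called genes depended on the fit. Without the plate (replicate) block, the count was 57 for wells without GAD over GAD wells, 809 for Hcrt wells over wells without GAD and 19 for high-Hcrt over low-Hcrt wells, and it stayed within 1.5-fold for the other comparisons. Without the count filter, which leaves more genes to test, it was 3681 of 35218 for Pmch over Hcrt wells. For wells without GAD over GAD wells it was then 225 of 26356. For Hcrt wells over wells without GAD it was 1128 of 31193, and for high over low Cartpt 35 of 19137. With DESeq2 it was 119 for wells without GAD over GAD wells and 38 for high over low Cartpt, and with RLE scaling 337 for Hcrt wells over wells without GAD. With peptide limits of 0.2% it was 2171 for Hcrt over GAD wells, 1364 for Pmch over Hcrt wells and 17 for wells without GAD over GAD wells, and with 5% it was 58 for wells without GAD over GAD wells. With 20 UMIs of GAD it was 71 for wells without GAD over GAD wells and 1859 for Hcrt wells over wells without GAD, and with the neuron limit 61 and 825. Thinned to 18000 UMIs, which leaves fewer genes to test, it was 2353 of 6344 for Hcrt over GAD wells and 1290 of 4458 for Pmch over Hcrt wells. For wells without GAD over GAD wells it was then 24 of 3859. For Hcrt wells over wells without GAD it was 118 of 4482, and for high-Hcrt over low-Hcrt wells 123 of 5891. With at least 2 wells per plate it was 8 for high over low Cartpt. Leaving out each plate gave 3366 to 3745 calls for Hcrt over GAD, 2221 to 2364 for Pmch over Hcrt, 32 to 65 for wells without GAD over GAD (65 without plate 19), 393 to 724 for Hcrt over wells without GAD, 131 to 256 for high over low Hcrt and 13 to 19 for high over low Cartpt. The cause of these differences was not tested.

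Of the values for named list genes and tested regulators, 894 kept direction and side of the threshold and 16 lost the call, 11 of them for Foxp2 in Hcrt wells over wells without GAD. The 12 differences that turned in sign were all uncalled. Otx1 between high-Cartpt and low-Cartpt wells was -0.0059 with RLE scaling, -0.025 without the filter, -0.13 without the block, -0.12 with at least 2 wells per plate and between -0.22 and 0.15 without single plates, and Dmrtb1 lay between -0.069 and 0.30 without single plates. Lmo2 was 0.0054 when the top and bottom 1/3 of Hcrt shares were compared. Low counts limit Zic1, Zic4 and Lmo2 in the 68 Pmch wells and the regulators other than Otp in the 71 wells without GAD. Otp had 610 UMIs there, from 32 of the 71 wells.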
